A study of Mus musculus with 6 samples.

Results

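Homeostatic microglia genes are genes that resting microglia, the resident macrophages of the brain, express at a high level. The 9 followed here were P2ry12, P2ry13, Gpr34, Cx3cr1, Csf1r, Siglech, Tmem119, Sall1 and Olfml3. The members were the 9 rows with these gene names among the 41386 genes of the deposited table, and all 9 passed the filter on low counts. RNA-seq read counts from mouse hippocampus were compared between 3 libraries from mice with ischemia/reperfusion (I/R) and 3 from sham-operated mice (sham). All mice were C57BL/6 wild type and 56 days old. In I/R the middle cerebral artery was blocked for 1.5 h by a filament and blood flow was then restored for 24 h, and sham mice had the operation without the filament. Per the study's methods the hippocampi were taken from the operated side, and the study describes each RNA-seq replicate as made from 3 hippocampus samples, so the spread between libraries is one between pools.

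Microglia take up this gene programme after they settle in the brain, under signals that include TGF-β from the tissue and ligands of the receptor Csf1r. The programme covers surface receptors that sense nucleotides, lipids and chemokines, a lectin, a transcription factor and a secreted protein. P2ry12, Tmem119, Sall1 and Siglech are widely used to tell microglia from macrophages that enter from blood, whereas Csf1r and Cx3cr1 are also expressed by monocytes and other macrophages. Loss of P2ry12 and Tmem119 signal is a known feature of microglia that respond to injury.

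After I/R 4 of the 9 genes fell, 1 rose and 4 did not pass the test. Siglech fell to 26.6% of its sham level, P2ry12 to 31.4%, Gpr34 to 52.9% and Tmem119 to 62.3%. Cx3cr1 rose to 140% of its sham level, with support that depended on single libraries and on the scaling. Among all 18569 genes tested, 41.8% were called in either direction, 19.9% lower and 21.8% higher. A gene was called at Padj under 0.05 in edgeR's quasi-likelihood test and a fold change over 1.2. The median log2 fold change was -0.68 over the 9 genes and 0.03 over all genes tested. With a fold change over 2, 2 of the 9 were called lower (P2ry12 and Siglech), where 4.67% of all genes tested were. In 5 of the 9 genes every I/R library was below every sham library and in none was every I/R library above. Of all 18569 genes tested, 5224 had every I/R library below and 5442 had every I/R library above. Both directions together made up 57.4% of all genes tested. Since this is bulk tissue, fewer microglia and less RNA per microglial cell cannot be told apart.

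The libraries held 37493042 to 44788547 counted reads. CPM stands for counts scaled to a common library size after TMM correction in edgeR, and errors of levels are SDs of 3 libraries. The log2 fold change of I/R over sham (log2FC) is given ± its SE, and Padj is the Benjamini-Hochberg adjusted p of edgeR's quasi-likelihood test over all genes tested. Choroid plexus RNA was uneven: the summed level of 8 choroid plexus genes, among them Ttr, was 36.0 CPM in I/R replicate 3 and 39.0 CPM in sham replicate 1, and 1608 to 4456 CPM in the other 4 libraries. The 15 listed genes shared by microglia and macrophages summed to 559, 367 and 377 CPM for replicates 1, 2 and 3 of I/R, against 129 to 143 CPM for sham.

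**Figure D1:**
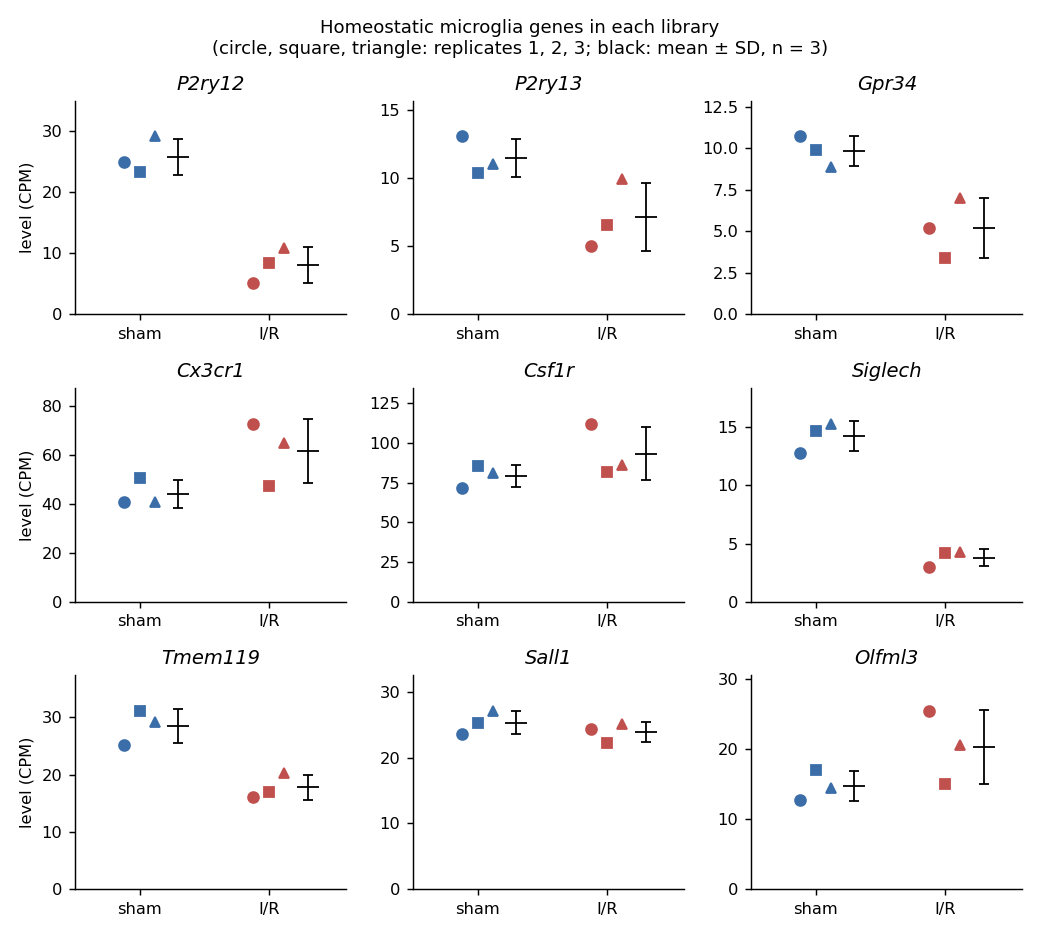
Level of each of the 9 genes in each library, in CPM on a linear axis from 0, for sham (blue) and I/R (red), with the mean and SD of 3 libraries in black. P2ry12 lies at 5.08 to 10.9 CPM in I/R and 23.4 to 29.2 CPM in sham, and Siglech at 2.99 to 4.25 against 12.8 to 15.3 CPM, whereas the points of Cx3cr1, Csf1r, Sall1 and Olfml3 overlap between the groups.

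The promoters of 4 of the genes are shown for their range of changes: P2ry12 and P2ry13 lie side by side on chromosome 3, Siglech had the largest fall as a ratio and Cx3cr1 is the gene that rose. Each sequence is the 250 bases before the RefSeq start site on GRCm38.p6, 5′ to 3′ on the strand of the gene, and the RefSeq table used here matched 6 of the 9 genes. Capitals mark matches, on either strand, to simplified letter patterns named after factors of the microglial programme. These were GAGGAA and GGAAGT, which are overlapping stretches of the PU.1 consensus and shared by other ETS factors, and the MEF2-type letters CTA and TAG with any 4 bases between them.
P2ry12 (chr3:59262986-59263235, minus strand): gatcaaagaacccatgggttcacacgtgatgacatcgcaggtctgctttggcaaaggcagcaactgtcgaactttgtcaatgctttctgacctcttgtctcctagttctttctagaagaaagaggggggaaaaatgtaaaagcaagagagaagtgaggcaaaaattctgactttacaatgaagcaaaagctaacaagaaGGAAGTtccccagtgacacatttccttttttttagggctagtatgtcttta
P2ry13 (chr3:59210883-59211132, minus strand): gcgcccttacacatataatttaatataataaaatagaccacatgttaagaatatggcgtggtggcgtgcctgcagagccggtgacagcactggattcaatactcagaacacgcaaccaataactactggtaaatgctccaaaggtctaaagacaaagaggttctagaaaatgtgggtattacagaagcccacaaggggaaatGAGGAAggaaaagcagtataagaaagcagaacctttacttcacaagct
Siglech (chr7:55767934-55768183, plus strand): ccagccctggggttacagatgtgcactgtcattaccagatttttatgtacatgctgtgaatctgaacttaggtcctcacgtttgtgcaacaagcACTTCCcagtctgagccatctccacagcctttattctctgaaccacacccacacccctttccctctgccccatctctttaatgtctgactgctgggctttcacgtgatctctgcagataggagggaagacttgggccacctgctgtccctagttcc
Cx3cr1 (chr9:120068297-120068546, minus strand): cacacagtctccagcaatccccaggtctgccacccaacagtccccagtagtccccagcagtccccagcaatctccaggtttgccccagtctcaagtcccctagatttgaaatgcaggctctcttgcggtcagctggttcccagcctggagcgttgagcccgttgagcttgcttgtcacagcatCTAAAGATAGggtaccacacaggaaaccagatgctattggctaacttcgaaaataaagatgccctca

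In these windows P2ry12 held GGAAGT at bases -51 to -46 before the start, P2ry13 held GAGGAA at -48 to -43, Siglech held GGAAGT on the opposite strand at -156 to -151, and Cx3cr1 held the MEF2-type letters at -67 to -58. Of 32851 promoter windows of this length, 23.3% held GAGGAA, 19.7% held GGAAGT and 3.20% held the MEF2-type letters. GGAAGT was added to the search after the P2ry12 window had been read. An SMAD palindrome (GTCTAGAC, in 0.167% of windows) and an IRF-type pair of GAAA with any 2 bases between (in 2.98%) had no match in the windows of the 6 genes. Sall1 held GGAAGT before 1 of its 3 start sites. Such a match is a description of letters, not a binding site.

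P2ry12, P2ry13 and Gpr34 encode G protein-coupled receptors for nucleotides and lipids. P2ry12, an ADP receptor that guides microglial processes to damaged cells, lies on chromosome 3 from 56084360 to 56131207 (BALB/cJ assembly, minus strand, MGP_BALBcJ_G0027219). Its counts, for replicates 1, 2 and 3 in this order as throughout, were 231, 334 and 437 (I/R) against 973, 951 and 1003 (sham). All I/R libraries lay far below all sham libraries, and I/R replicate 1 was the lowest. The level was 8.12 ± 2.93 CPM (I/R) against 25.8 ± 2.98 CPM (sham) (log2FC -1.67 ± 0.26, Padj 0.00209). Leaving out I/R replicate 1 gave -1.42.

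P2ry13, a second ADP receptor, lies next to P2ry12 on chromosome 3 from 56075980 to 56078970 (MGP_BALBcJ_G0027218). Its counts were 227, 262 and 397 (I/R) against 510, 422 and 380 (sham). On the CPM scale the I/R libraries, at 4.99, 6.55 and 9.93, were below the sham libraries, at 13.1, 10.4 and 11.0, but I/R replicate 3 was close to sham. Its log2FC of -0.69 ± 0.25 did not pass (Padj 0.0574). It passed in 7 of 19 alternatives, among them those without I/R replicate 3, at -1.02 (Padj 0.0068), and without I/R replicate 1, at -0.48 (0.0472), and Padj lay between 0.0068 and 0.166 over the 19.

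The ratio of both receptors within a library does not depend on how libraries are scaled. There were 1.02, 1.27 and 1.10 P2ry12 reads per P2ry13 read (I/R) against 1.91, 2.25 and 2.64 (sham). The mean ratio was 1.13 ± 0.131 after I/R against 2.27 ± 0.366, and the groups were apart. A two-sided exact permutation test gave p = 0.1, which is the lowest value 3 against 3 can reach. Both genes lie within Med12l, a gene on the opposite strand, and the sources used here do not say whether reads were counted by strand. In the GENCODE M21 annotation 9 of 2546 exon bases of P2ry12 and 0 of 2528 of P2ry13 lay in exons of another gene. Med12l itself fell (log2FC -0.85 ± 0.12, Padj 0.00144), from 1750 to 2029 counts in sham to 1073 to 1200 in I/R.

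Gpr34, a receptor for lysophosphatidylserine, lies on chromosome X from 8439318 to 8448033 (MGP_BALBcJ_G0035545) within Cask, on the strand opposite to it. Its counts were 237, 136 and 280 (I/R) against 418, 403 and 306 (sham). The I/R level of 5.20 ± 1.80 CPM was below the sham level of 9.84 ± 0.91 CPM in every library, and I/R replicate 2, not replicate 1, was the lowest. This gave a log2FC of -0.92 ± 0.25 (Padj 0.0213). Cask had a log2FC of -0.03 ± 0.08. Gpr34 did not pass with library size only (-0.66, Padj 0.0657), or when sham replicate 1 (-0.86, 0.0699) or sham replicate 2 (-0.92, 0.0680) was left out.

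Cx3cr1, the receptor for the neuronal chemokine fractalkine, and Csf1r, whose signal microglia need to survive, are the receptors for ligands made by neurons and glia. Cx3cr1 (chromosome 9, 118153098 to 118172355, MGP_BALBcJ_G0035406) had 3317, 1887 and 2605 counts (I/R) against 1596, 2059 and 1408 (sham). On the CPM scale I/R replicates 1 and 3, at 72.9 and 65.1, were above all sham libraries, while I/R replicate 2, at 47.2, lay within the sham range of 40.9 to 50.7. The level was 61.7 ± 13.2 CPM (I/R) against 44.2 ± 5.64 CPM (sham) (log2FC 0.48 ± 0.17, Padj 0.0489). Of 19 alternatives 10 lost this call, with log2 fold changes of 0.35 to 0.75 and Padj of 0.0120 to 0.263 over all 19. It was lost without I/R replicate 1 (0.35, Padj 0.101), I/R replicate 3 (0.42, 0.123), sham replicate 1 (0.42, 0.155), sham replicate 2 (0.59, 0.0610) or sham replicate 3 (0.42, 0.157), and with the replicate number as a block (0.47, 0.101).

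Csf1r (chromosome 18, 58483997 to 58510446, MGP_BALBcJ_G0024441) had the most reads of the 9 genes, with 5104, 3265 and 3435 counts (I/R) against 2805, 3466 and 2778 (sham). I/R replicate 1, at 112 CPM, stood clearly above the sham range of 71.8 to 85.3 CPM, I/R replicate 3 barely did at 85.9 CPM and I/R replicate 2 lay within it at 81.7 CPM. Its log2FC of 0.23 ± 0.13 did not pass (Padj 0.198). Without I/R replicate 1 it was 0.08, and with library size only it was called higher, at 0.50 (Padj 0.0304). In GENCODE M21, 15.1% of the exon bases of Csf1r lay in exons of another gene, and without strand such reads cannot be told apart.

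Siglech and Tmem119 are the surface proteins outside these receptor families, and both fell. Siglech, a sialic acid-binding lectin that signals through the adaptor Tyrobp (DAP12), lies on chromosome 7 from 55333014 to 55343740 (MGP_BALBcJ_G0032302). Its counts were 136, 166 and 170 (I/R) against 501, 598 and 527 (sham), with every I/R library below every sham library. The level was 3.80 ± 0.70 CPM (I/R) against 14.3 ± 1.30 CPM (sham) (log2FC -1.91 ± 0.18, Padj 0.000435). It was called in all 19 alternatives, at -2.09 to -1.36. Tmem119, a membrane protein of unclear function that marks resident microglia, lies on chromosome 5 from 113283024 to 113289809 (MGP_BALBcJ_G0029900). It had 731, 678 and 810 counts (I/R) against 985, 1266 and 1002 (sham). The level was 17.8 ± 2.21 CPM (I/R) against 28.5 ± 3.01 CPM (sham) (log2FC -0.68 ± 0.13, Padj 0.00480), and it too was called in all 19 alternatives, at -0.88 to -0.41.

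Sall1, a zinc finger transcription factor that holds microglial identity, lies on chromosome 8 from 86757600 to 86774584 (MGP_BALBcJ_G0033900). Its counts were 1110, 891 and 1003 (I/R) against 923, 1028 and 934 (sham), and the groups overlapped. The level was 23.9 ± 1.45 CPM (I/R) against 25.4 ± 1.75 CPM (sham) (log2FC -0.08 ± 0.10, Padj 0.537). Its sign depended on the scaling, since it was 0.17 with library size only. Olfml3, a secreted olfactomedin-like matrix protein that also occurs outside microglia, lies on chromosome 3 from 101434648 to 101450415 (MGP_BALBcJ_G0027667). It had 1157, 596 and 820 counts (I/R) against 494, 690 and 495 (sham), at 20.3 ± 5.26 CPM and 14.7 ± 2.18 CPM. I/R replicates 1 and 3 were above sham and I/R replicate 2 was within it. Its log2FC of 0.47 ± 0.20 did not pass (Padj 0.101), and Olfml3 was called without I/R replicate 2, at 0.63 (0.0286).

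**Figure D2:**
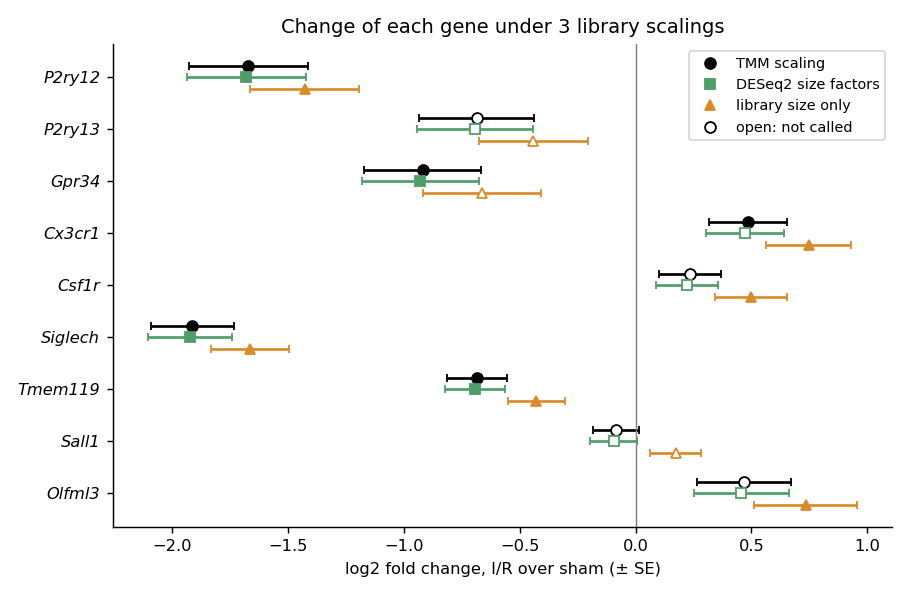
Log2 fold change of I/R over sham for each of the 9 genes with its SE, under TMM (black circles), DESeq2 size factors (green squares) and library size only (orange triangles); filled symbols were called and open ones were not. P2ry12, Siglech and Tmem119 are called lower under the 3 scalings, Cx3cr1 is open under DESeq2 size factors, and Sall1 lies at -0.08 with TMM and 0.17 with library size only.

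Of the 9 genes only Sall1 changed direction under the scalings tried, while calls of the smaller changes depended on it. Over all genes tested the median log2FC was 0.03 under TMM but 0.28 when libraries were scaled by size only, and the share of calls that were higher was 52.3% against 75.8%. In that case 3 of the 9 genes were called lower (P2ry12, Siglech and Tmem119) and 3 higher (Cx3cr1, Csf1r and Olfml3). A ratio to another gene of the same library does not depend on the scaling, but it does depend on the reference gene. Csf1r was used as the reference, and monocytes and other macrophages express it too. With Aif1 instead, the difference in log2 ratio between I/R and sham changed sign for Cx3cr1 (0.24 to -0.27) and Olfml3 (0.22 to -0.30). Per 100 Csf1r reads there were 4.53, 10.2 and 12.7 P2ry12 reads (I/R) against 34.7, 27.4 and 36.1 (sham). For Siglech there were 2.67, 5.08 and 4.95 (I/R) against 17.9, 17.3 and 19.0 (sham), and for Tmem119 there were 14.3, 20.8 and 23.6 (I/R) against 35.1, 36.5 and 36.1 (sham).

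The log2 ratio to Csf1r differed between I/R and sham by -2.15 for Siglech, -1.96 for P2ry12, -1.20 for Gpr34, -0.96 for P2ry13, -0.91 for Tmem119 and -0.31 for Sall1. For each of these 6 genes all I/R ratios were below all sham ratios. The share of all genes tested with such a gap in the ratio was not computed. Csf1r, which was not called, was at 118% of its sham level, which lowers each ratio. Sall1 was apart only as a ratio, since its libraries overlapped on the CPM scale. The ratio differed by 0.24 for Cx3cr1 and 0.22 for Olfml3, where the libraries overlapped. Exact two-sided permutation p was 0.1 for the first 6 and 0.2 for the last 2, and 0.1 is the lowest value possible, so none can pass. The log2 SD of the ratio was 0.03 for Tmem119 and 0.07 for Siglech in sham, against 0.37 and 0.53 in I/R. I/R replicate 1 had the lowest ratio to Csf1r for 5 genes (P2ry12, P2ry13, Siglech, Tmem119 and Sall1) and also the highest Csf1r level. Without it the ratio differed by -1.51 for P2ry12, -0.59 for P2ry13 and -0.18 for Sall1. The difference for Cx3cr1 was 0.14 without I/R replicate 3, and that for Olfml3 was 0.14 without I/R replicate 3 and 0.34 without I/R replicate 2.

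**Figure D3:**
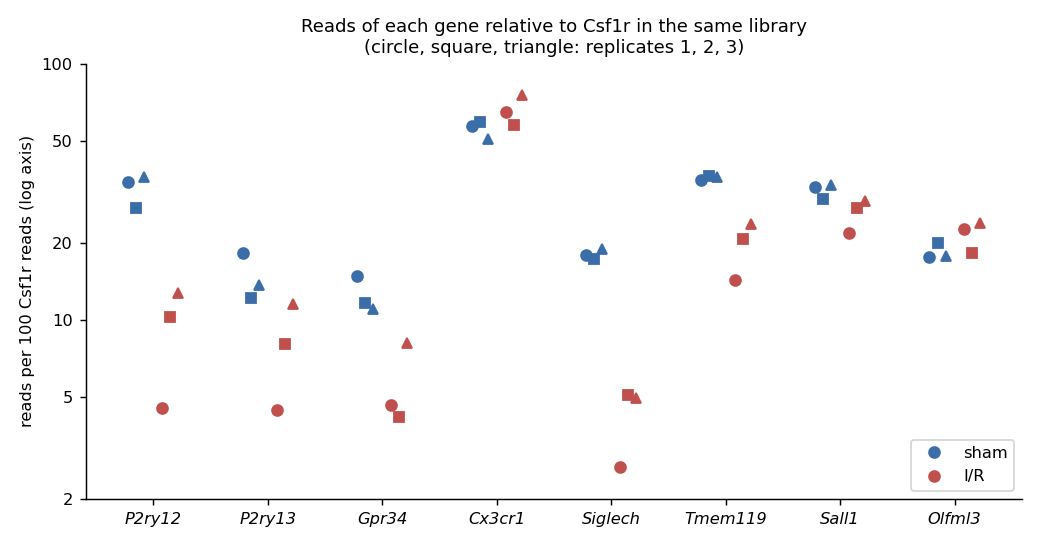
Reads of each gene per 100 Csf1r reads of the same library, on a log axis, for sham (blue) and I/R (red), with one symbol per replicate. P2ry12 falls from 27.4 to 36.1 reads in sham to 4.53 to 12.7 in I/R, whereas Cx3cr1 stays between 50.7 and 75.8 reads in both groups.

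Levels of different genes were compared per length, on the deposited FPKM scale. In sham the order was Tmem119 (20.2 ± 2.01 FPKM), Csf1r (16.7 ± 1.34), P2ry12 (12.5 ± 1.49), Cx3cr1 (11.3 ± 1.36), Siglech (8.12 ± 0.715), Olfml3 (4.97 ± 0.701), Gpr34 (4.52 ± 0.424), Sall1 (4.41 ± 0.303) and P2ry13 (4.16 ± 0.531). The libraries of P2ry12 and Cx3cr1 overlapped, as did each neighbouring pair from Olfml3 to P2ry13. In I/R Csf1r was first (23.6 ± 5.34 FPKM), then Cx3cr1 (19.0 ± 4.73) and Tmem119 (15.01 ± 1.45), and neighbours among these overlapped. Olfml3 followed at 8.26 ± 2.48 FPKM, apart from Tmem119 and from Sall1. The last 5 genes were Sall1 (4.97 ± 0.418), P2ry12 (4.63 ± 1.52), P2ry13 (3.07 ± 0.984), Gpr34 (2.85 ± 0.964) and Siglech (2.56 ± 0.370), each overlapping the next. P2ry12 and Siglech thus stood lower in the order in I/R than in sham. FPKM is scaled by total counts only, and the length it used was shorter than the listed one for several genes (2698 against 5473 bases for Olfml3), so the order rests on those lengths.

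Ligands and partners of these receptors were read from a list of 16 genes, of which 8 were called higher after I/R and 4 lower (Il34, Cx3cl1, Abhd12 and Smad3). The call of Smad3 (log2FC -0.28) was lost with library size only, at -0.03, and without any 1 of the sham libraries. Both ligands of Csf1r were called, in opposite directions. Csf1 was at 175, 87.3 and 86.4 CPM (I/R) against 35.2, 29.8 and 33.4 CPM (sham) (log2FC 1.83 ± 0.27, Padj 0.00188). Il34, which neurons make, was at 20.5, 21.1 and 25.1 CPM (I/R) against 39.7, 46.4 and 39.6 CPM (sham) (log2FC -0.91 ± 0.12, Padj 0.00117). Cx3cl1, the neuronal ligand of Cx3cr1, fell from 621 ± 34.8 to 287 ± 77.4 CPM (log2FC -1.11 ± 0.20, Padj 0.00394).

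Partners of the receptors that fell were among the genes called higher, and which cells this RNA came from was not tested. Tyrobp, the adaptor through which Siglech signals, rose by 2.09 on the log2 scale (SE 0.23, Padj 0.000736). Entpd1, the ectoenzyme that breaks ATP and ADP down at the cell surface, rose by 1.25 ± 0.23 (Padj 0.00425), and Kcnk13, a potassium channel, by 1.15 ± 0.23 (Padj 0.00563). Pla1a, a phospholipase that can make lysophosphatidylserine, rose by 2.13 ± 0.29 (Padj 0.00146). Abhd12 of the same list went the other way (log2FC -0.61 ± 0.12, Padj 0.00666). Tgfb1 rose by 1.72 ± 0.25 (Padj 0.00183), from 5.12 to 6.77 CPM in sham to 13.7 to 27.3 CPM in I/R. Neuronal markers were lower as well, since 8 listed neuronal genes summed to 2040 to 4070 CPM in I/R and 7064 to 7396 CPM in sham, and their part in the fall of Il34 and Cx3cl1 was not tested.

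Among 11 transcription factors of the microglial programme 6 were called higher and 1 lower, while Sall1 was not called. Whether these changes arose in microglia or in other cells was not tested. Runx1 rose from 0.975 ± 0.377 to 10.5 ± 2.64 CPM (log2FC 3.43 ± 0.34, Padj 0.000492). Spi1, which encodes PU.1, rose by 2.08 ± 0.28, Cebpb by 1.45 ± 0.19, Irf8 by 1.29 ± 0.23 and Cebpa by 0.57 ± 0.13, with Padj 0.00131, 0.00113, 0.00340 and 0.00924. Mef2a, which neurons also express, had a log2FC of -0.61 ± 0.19 (Padj 0.0330) and was not called with library size only, at -0.36. Nor was Mef2a called without sham replicate 1 (Padj 0.105), 2 (0.0656) or 3 (0.0889).

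Other genes of the homeostatic programme moved in both directions. Of 21 tested, 11 were called higher and 5 lower, with a median log2 fold change of 0.27. The largest falls were Slc2a5, a fructose transporter (log2FC -3.22 ± 0.42, Padj 0.00127), Crybb1, a crystallin (-2.51 ± 0.36, 0.00173), and Selplg, the P-selectin ligand (-1.45 ± 0.16, 0.000762). Slc2a5 had 7, 23 and 21 counts (I/R) against 144, 155 and 141 (sham). Among the larger rises were Fcrls, an Fc receptor-like protein (log2FC 2.22 ± 0.24, Padj 0.000662), and P2ry6, the UDP receptor that triggers phagocytosis (1.78 ± 0.26, 0.00168). Among P2Y receptors P2ry12 and P2ry6 thus moved in opposite directions.

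Genes shared by microglia and macrophages were called higher in 14 of 14 tested, with a median log2 fold change of 2.10. Cybb rose by 3.54 ± 0.56, Cd68 by 2.78 ± 0.25, Cd53 by 2.55 ± 0.22 and Aif1 by 0.76 ± 0.19, with Padj 0.00237, 0.000375, 0.000347 and 0.0150. Cybb had 2.81 without I/R replicate 1. Aif1 was not called without sham replicate 1 (Padj 0.0588), without sham replicate 2 (0.0584) or in the 4 libraries with choroid plexus RNA (0.117). Itgam was listed with 0 counts in every library, so this marker could not be read here. Of 13 disease-associated microglia genes tested 8 were called higher and 1, Apoe, lower (log2FC -0.72 ± 0.13, Padj 0.00425), which astrocytes also make. Spp1, Lgals3 and Cst7 had the largest rises, at 6.17 ± 0.41, 5.36 ± 0.42 and 3.69 ± 0.56, with Padj 0.000216, 0.000280 and 0.00200, and Cst7, at 1 to 8 sham counts, had 4.29 without sham replicate 1. Whether these rises arose in microglia or in other cells was not tested.

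Genes listed as markers of macrophages from other sources rose in the same libraries. Ccr2, which defines blood monocytes, had 83, 23 and 87 counts (I/R) against 8, 9 and 1 (sham) (log2FC 3.27 ± 0.71, Padj 0.00809). Of the 8 listed infiltrating monocyte genes, Plac8, S100a4 and F10 were below the filter on low counts, and 4 of 4 tested were called higher. The 7 in the table summed to 79.5 to 116 CPM in I/R and 27.2 to 30.3 CPM in sham, where Vcan alone made up 26.7 to 30.2 CPM. In I/R Msr1 made up 37.1 to 60.0 CPM and Vcan 37.6 to 44.3 CPM, so both together were most of the sum. Ccr2 was at 0.575 to 2.18 CPM in I/R. Vcan had a log2FC of 0.46 ± 0.10 (Padj 0.00956). Msr1, the largest of these rises, had 2732, 1720 and 1485 counts (I/R) against 9, 3 and 1 (sham) (log2FC 8.64 ± 0.40, Padj 7.57e-05), and Chil3 had 340, 72 and 70 counts against 0, 7 and 0 (log2FC 5.85 ± 1.06, Padj 0.00391). Of 8 border macrophage genes 6 were called higher, among them Pf4 (3.49 ± 0.46), Lyve1 (2.67 ± 0.25), Siglec1 (2.58 ± 0.56) and Mrc1 (1.22 ± 0.22), with Padj 0.00124, 0.000439, 0.00814 and 0.00423. This list summed to 70.5, 46.9 and 36.7 CPM (I/R) against 12.1 to 15.4 CPM (sham). Of 4 neutrophil genes tested 3 were called higher. Single libraries moved some of these values, to 9.69 for Msr1 without sham replicate 1, and to 4.80 for Chil3 and 1.95 for Siglec1 without I/R replicate 1. Without sham replicate 2 Chil3 had 0 sham counts and no fold is given. In the 4 libraries with choroid plexus RNA neither Ccr2 (log2FC 3.17, Padj 0.0525) nor Vcan (0.51, 0.0524) passed. Among other cell types, the calls were 3 higher and 3 lower of 7 astrocyte genes, 3 lower of 7 oligodendrocyte genes, 6 higher and 2 lower of 8 endothelial and pericyte genes and 1 lower of 8 choroid plexus genes. How far monocytes and border macrophages contributed to the reads of Csf1r and Cx3cr1 was not tested, nor was which cells the reads of Vcan and Msr1 came from.

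**Figure D4:**
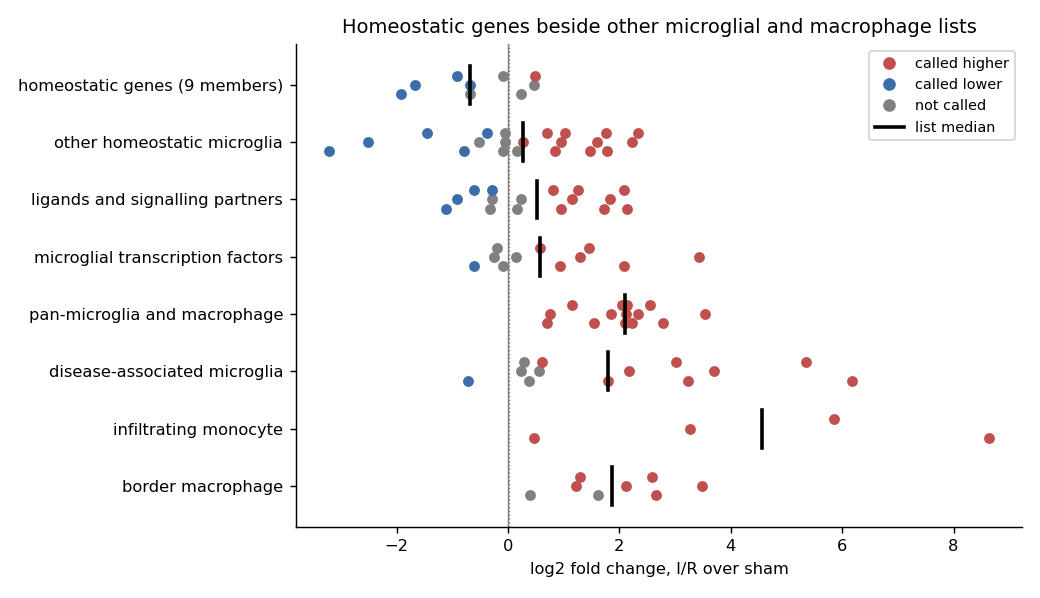
Log2 fold change of I/R over sham for the tested genes of 8 lists, one point per gene, red if called higher, blue if called lower and grey if not called, with the list median as a black bar; the dotted line is the median of all genes tested. The 9 homeostatic genes have their median at -0.68, the other homeostatic genes at 0.27 and the genes shared by microglia and macrophages at 2.10.

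The genes whose profile was most like that of each member were found from the root mean square difference (RMSD) of log2 CPM, centred per gene, over 6 libraries and 14047 named genes. They were Hlf (0.103) and Raver2 (0.110) for P2ry12, Lgr5 (0.0968) and Itpr1 (0.105) for Siglech, Shc3 (0.0301) and 5031434O11Rik (0.0360) for Tmem119, and Hhip (0.126) and Gm14004 (0.129) for Gpr34. For P2ry13 they were Aspa (0.0856) and Epha7 (0.0915). The nearest profiles to Cx3cr1 were Gm5239 (0.0660) and Cox4i2 (0.0777), to Olfml3 Cox4i2 (0.0700) and AU021092 (0.0828), to Csf1r Pgs1 (0.0281) and Mthfd1 (0.0424), and to Sall1 Ak3 (0.0250) and Dis3l (0.0297). Within the 9 genes Cx3cr1 and Olfml3 were each other's nearest profile, at an RMSD of 0.0730, and P2ry12 and Siglech were each other's nearest at 0.217. With 6 libraries in 2 groups many genes share such a profile, so this is a description only.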

How the data were processed

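Per the study's methods TopHat 2 placed the reads on an Ensembl genome and HTSeq assigned them to genes. Raw counts and FPKM per library, both made by the authors, were deposited. The submitters' processing notes also name Bowtie 0.12.2 and mm8. Identifiers were of the BALB/cJ strain annotation, although the mice were C57BL/6. How strand and reads with several alignments were treated is not given in the sources used here. The table also holds the authors' pooled means, fold changes and p-values, which were not used. Its 41390 lines gave 41386 genes after 4 split lines were rejoined.

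The test was that of edgeR 4.0.16 under R 4.3.3 (filterByExpr, TMM, glmQLFit with robust estimation, glmQLFTest, no covariate), with Benjamini-Hochberg adjustment over 18569 genes. The SE was the size of the log2 fold change divided by the square root of F. Alternatives used DESeq2 1.42.0, limma 3.58.1, other scalings and filters, a replicate block, a choroid plexus covariate and each library left out. All permutation tests were exact.

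The 9 members and the gene lists were chosen with earlier results of these data known. Named were all members, called ligands, partners and factors (at most 8 per list by adjusted p), the 3 largest called changes per direction of each other list, set markers (among them Aif1, Itgam, Tyrobp, Ccr2, Mrc1, Ttr) and the 2 nearest profiles per member among genes of at least 1 CPM; Med12l and Cask were added as overlapping genes, and Abhd12, Smad3 and Vcan were named after their values were seen. Some genes that this rule names are not reported here. Ltc4s, Itgax and Ly6c2 were not analysed here. Labels do not tie libraries to animals, so p-values measure the spread between libraries.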

Additional observations from a re-analysis of the deposited data

How the results depend on the processing

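The falls of P2ry12, Siglech and Tmem119 kept their direction and call in 19 of 19 alternatives. Gpr34 lost its call in 5 (library size only, FPKM plus 1, FPKM plus 0.1, without sham replicate 1 and without sham replicate 2) and Cx3cr1 in 10. P2ry13 gained a call in 7, Olfml3 in 4 and Csf1r in 3. A single gene of the 9 was called higher. That count was 0 in edgeR with DESeq2 size factors, with the choroid plexus covariate and with the replicate number as a block, and 0 with limma-voom, each with 1 gene higher at an unadjusted p under 0.05. It was 0 with a fold change over 2 and 0 in the 4 libraries with choroid plexus RNA (0 at an unadjusted p under 0.05; an alternative chosen after seeing the data), 1 with the DESeq2 Wald test, 3 with library size only and with either FPKM scale, and 0 to 2 with a library left out. The lower count was 4, and 3 to 5 over the 19 alternatives. It was 3 with library size only, with either FPKM scale and without sham replicate 1 or 2, and 2 with a fold change over 2. The factor called lower (Mef2a) was not called with library size only, either FPKM scale, the block or the choroid plexus libraries alone, giving 0 factors, and 0 to 1 with a library left out. Sall1 changed sign, to 0.17 with library size only, 0.17 on FPKM plus 0.1 and 0.14 on FPKM plus 1. With Aif1 in place of Csf1r as the reference the log2 ratio differed by -2.67 for Siglech, -1.72 for Gpr34, -1.43 for Tmem119, -0.83 for Sall1, -0.30 for Olfml3 and -0.27 for Cx3cr1, so the last 2 changed sign. Same-numbered libraries did not deviate together, with correlations of -0.10, 0.06 and -0.18 between the deviations of replicates 1, 2 and 3. The highest correlation, 0.27, was between I/R replicate 3 and sham replicate 1, the libraries with little choroid plexus RNA. Since that RNA enters the deviations, this check cannot exclude that the numbers mark pairs. Apart from Cx3cr1 and Mef2a, whose loss under the block is given above, no member or factor lost its call with it. Library size only and FPKM leave out the composition factor that TMM gives; the cause of the other changes was not tested.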
